A study of Mus musculus with 20 samples.

Results

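The 10 genes described here encode steroid dehydrogenases and reductases of the mouse liver. They were taken by symbol from the deposited gene tables, in which each of the 10 had 1 locus among 25444 gene loci, and all 10 were among the 13704 genes with enough counts to be tested. Total RNA from the left lateral lobe was sequenced for 20 mice at 20 weeks of age, in 4 groups of 5 mice: females (F) and males (M) of the inbred strains C57BL/6N (B6) and C3H/HeN (C3). The mice carried no transgene and received no treatment. They were single housed on the same change of diet, from NIH-31 to NTP2000, and each library comes from 1 animal. The rooms of the males and the females were separate. In every comparison of the sexes below, and in the interaction of sex and strain, room cannot be told apart from sex. The libraries were sequenced in 3 pools, each of which held 1 or 2 mice of every group, and held between 27370921 and 46835745 counts.

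Steroid hormones are made in the adrenal gland and gonads, and the liver is the main organ that inactivates them and converts them into one another. Dehydrogenases oxidise a hydroxyl group of the steroid to a ketone or reduce the ketone back, which switches a hormone between an active and an inactive form, and reductases saturate the double bond of the first ring as the first step of breakdown. The same chemistry is used in the synthesis of bile acids from cholesterol. Mouse liver is known for steroid-metabolising enzymes whose RNA differs between the sexes, and the comparisons below ask which of these 10 genes differed between females and males, between the strains, and in the size of the sex difference between strains.

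The genes Hsd3b5, Hsd3b2 and Hsd3b3 are neighbours on the minus strand of chromosome 3 and were each higher in males in both strains. In the mm9 coordinates of the tables Hsd3b5 lies at chr3:98422559-98449457, Hsd3b2 at chr3:98515030-98528466 and Hsd3b3 at chr3:98545399-98567051. The member Srd5a1, on chromosome 13, was also higher in males in both strains, and its promoter is not shown. The promoters of the 3 neighbours, which differed by sex in the same direction, are shown to let the sequence before each start be compared. Any part of these promoters in the sex difference was not tested. Each is the 250 bases upstream of the first listed RefSeq start, from RefSeq on GRCm38.p6 and written 5′ to 3′ along the gene, at chr3:98645535-98645784 for Hsd3b5, chr3:98763129-98763378 for Hsd3b3 (which has 2 listed starts) and chr3:98724544-98724793 for Hsd3b2. Capitals mark every run of 10 or more bases that is identical in another of the 3.
Hsd3b5: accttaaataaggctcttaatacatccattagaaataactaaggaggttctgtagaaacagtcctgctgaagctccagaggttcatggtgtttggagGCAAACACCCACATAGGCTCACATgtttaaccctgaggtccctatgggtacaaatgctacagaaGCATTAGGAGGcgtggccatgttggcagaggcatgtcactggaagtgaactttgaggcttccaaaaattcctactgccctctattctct
Hsd3b3: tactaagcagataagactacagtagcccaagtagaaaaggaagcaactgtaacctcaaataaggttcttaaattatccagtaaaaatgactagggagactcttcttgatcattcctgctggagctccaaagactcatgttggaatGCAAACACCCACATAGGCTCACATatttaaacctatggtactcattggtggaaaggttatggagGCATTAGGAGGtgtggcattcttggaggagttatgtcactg
Hsd3b2: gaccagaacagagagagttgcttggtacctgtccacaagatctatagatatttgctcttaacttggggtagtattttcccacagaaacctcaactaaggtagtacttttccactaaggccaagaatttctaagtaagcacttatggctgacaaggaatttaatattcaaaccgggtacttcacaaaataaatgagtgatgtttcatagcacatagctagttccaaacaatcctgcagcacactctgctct

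Hsd3b5 and Hsd3b3 shared 2 such runs, of 24 and 11 bases, which cover 35 bases or 14.0% of each promoter. The longer run occurred in 3 of 32851 RefSeq promoters of 300 bases, which were those of Hsd3b5 and both starts of Hsd3b3, and the shorter run in 4, the fourth being that of Mybphl. In a local alignment these promoters matched at 75.5% of 204 columns, with a score of 101.5, against a highest score of 20.0 among the 33 pairs of members that are not both from this set of 3. The Hsd3b2 promoter shared no such run, and its alignments with Hsd3b3 and Hsd3b5 scored 18.5 each. Neither value exceeded the highest score of the other pairs, although the Hsd3b2 coding sequence matched that of Hsd3b3 at 95.1% of positions and that of Hsd3b5 at 80.9%.

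On both strands of the 300-base RefSeq promoters, which were listed for 9 of the 10 members, 4 motifs were searched. The palindromic STAT5 element TTCNNNGAA was present in 8.30% of all promoters and, among the members, only in Hsd3b7. The palindromic glucocorticoid receptor element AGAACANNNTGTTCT was present in 0.00913% of all promoters and in none of the 9. The hexamer TGTTCT, an arm of that element and so overlapping it, was present in 19.0% of all promoters and in Hsd3b2. The TATA box TATAAA was present in 13.6% of all promoters and in Akr1c6. These matches describe the letters in the windows only.

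Levels of different genes are compared in TPM, the transcripts-per-million unit, which the authors scaled for gene length. Akr1c6 had the highest mean TPM of the 10 in all 4 groups, with 1872 ± 217 TPM (SD, n = 5) in female and 1816 ± 273 TPM in male B6 mice, and 1251 ± 170 TPM in female and 1550.5 ± 241 TPM in male C3 mice. Hsd3b7 and Hsd11b1 came next in B6 mice, and their livers overlapped in both sexes. In C3 females the range of Akr1c6 over livers overlapped with that of Hsd11b1, and that of Hsd11b1 with Hsd17b6, although Akr1c6 was above Hsd11b1 within each of the 5 livers. Hsd3b2 had the lowest mean in B6 females, B6 males and C3 males, with 26.6 ± 4.41, 63.3 ± 10.4 and 49.6 ± 5.11 TPM.

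Hsd3b5 moved furthest in this order. It had rank 9 in B6 females at 31.8 ± 23.7 TPM and rank 10 in C3 females at 15.8 ± 9.05 TPM, but rank 4 in B6 males at 369.6 ± 72.6 TPM and rank 3 in C3 males at 520.4 ± 65.1 TPM. In B6 females it overlapped with Srd5a1 above it and Hsd3b2 below it, and in B6 males with Hsd3b3. In C3 males its livers overlapped with both neighbours in the order, Hsd11b1 above and Hsd17b6 below.

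**Figure D1:**
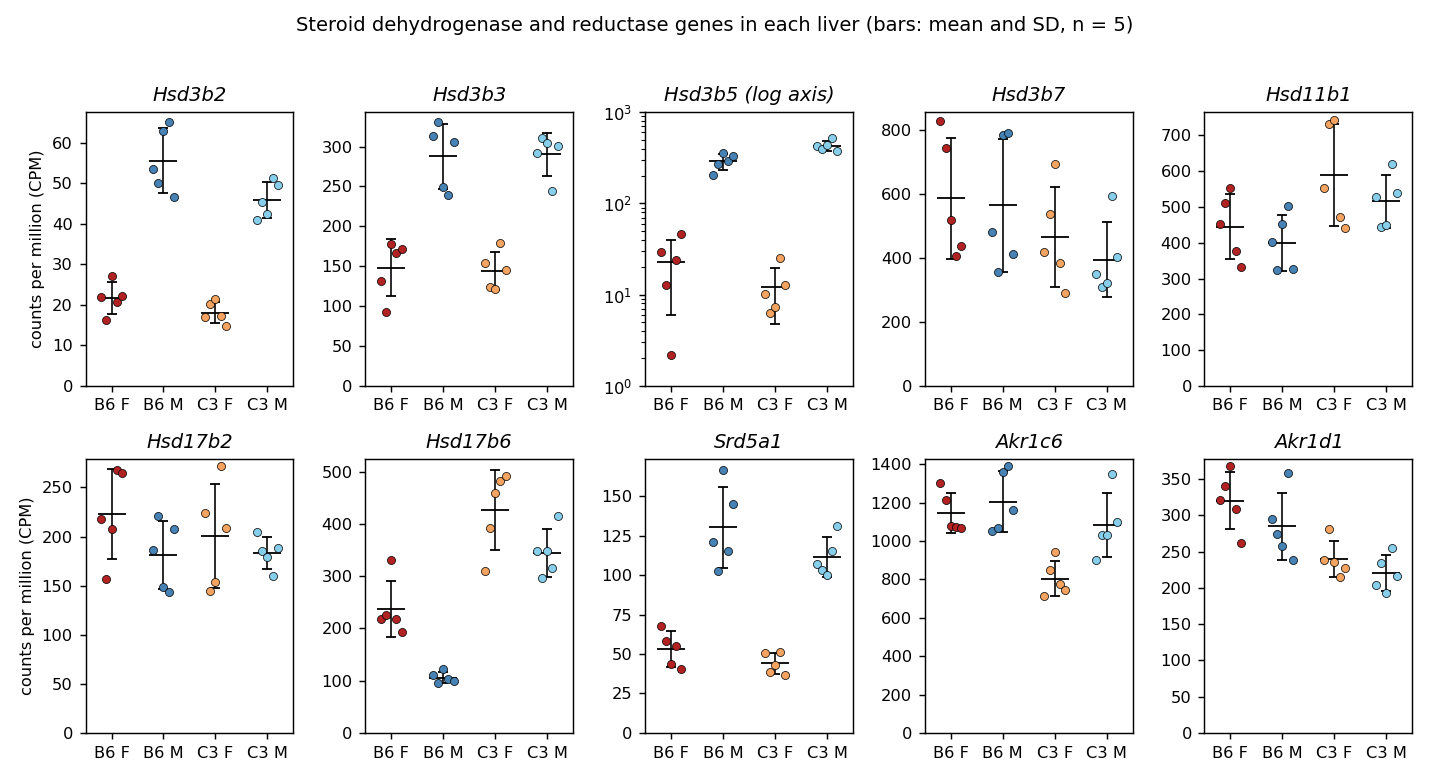
CPM (counts-per-million) of each gene in each of the 20 livers, with the group mean and SD (n = 5); the axis is linear from 0 except for Hsd3b5, which is drawn on a log axis. Every male liver lies above every female liver for Hsd3b2, Hsd3b3, Hsd3b5 and Srd5a1 in both strains, and Hsd17b6 is highest in C3 females, with a mean of 427 CPM.

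Between the sexes, 5 of the 10 genes were called in B6 mice and 4 in C3 mice, at an adjusted p under 0.001 with a log2 fold change beyond 0.5 in the quasi-likelihood test of edgeR. Hsd3b5, Hsd3b2, Hsd3b3 and Srd5a1 were higher in males in both strains, and Hsd17b6 was higher in females in B6 mice. Over all genes tested, 6.34% were called in B6 mice (3.23% higher in females and 3.12% higher in males) and 6.9% in C3 mice (4.11% and 2.79%). This split depended on the scaling, with 50.9% of the calls in B6 mice and 59.6% in C3 mice higher in females, but 64.3% and 70.0% after upper-quartile normalization and 71.6% and 77.4% for limma on log2(TPM + 0.1). The direction of the 5 called members was the same under each of these scalings. Livers of the sexes did not overlap for 5 of the 10 genes in B6 mice and 4 in C3 mice, against 10.9% and 13.1% of all genes tested. The median log2 fold change of females over males was 0.00 over the 10 genes in B6 mice and -0.20 in C3 mice, beside 0.00 and 0.01 over all genes. Each strain had 5 positive and 5 negative values among the 10.

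Hsd3b5 encodes an enzyme of the 3β-hydroxysteroid dehydrogenase family that in mouse liver acts as a 3-ketosteroid reductase, and it showed the largest sex difference of the 10. In CPM, the count scaled to a TMM-normalized library size, its level in B6 females was 29.2, 12.6, 2.16, 23.9 and 46.7 in replicates 1 to 5, and in B6 males 206, 271, 356, 293 and 329 CPM. In C3 females it was 10.1, 6.23, 7.32, 24.9 and 12.7 CPM, and in C3 males 423, 395, 432, 520 and 380 CPM. All males lay above all females, and the highest female liver, of B6, was below the lowest male liver, also of B6. The difference was 14.0-fold in B6 mice (log2 fold change -3.81 ± 0.46 SE, adjusted p = 4.8e-06) and 40.8-fold in C3 mice (-5.35 ± 0.49, adjusted p = 2.1e-07).

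Females varied more than males in Hsd3b5. The coefficient of variation was 73.8% in B6 females and 61.4% in C3 females, against 19.8% in B6 males and 12.7% in C3 males. Single livers weighed on these values, as the coefficient was 50.5% without B6 female replicate 3, 32.1% without C3 female replicate 4, 12.0% without B6 male replicate 1 and 5.96% without C3 male replicate 4, a check chosen after the values were seen. B6 females spanned a 21.6-fold range, or 3.70-fold without replicate 3, from 64 counts in replicate 3 to 1713 in replicate 5, so the lowest liver was well above the counting limit of 3. Replicate 3 was also the only B6 female of its sequencing pool. Female livers were lower in every pool, with log2 differences of -3.16, -6.54 and -4.07 in B6 mice and -4.53, -5.31 and -6.26 in C3 mice for pools 1, 2 and 3.

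Hsd3b2 encodes a 3β-hydroxysteroid dehydrogenase, the type that oxidises the 3-hydroxyl group and moves the double bond of the first rings. Its level was 22.0, 16.2, 27.2, 20.7 and 22.3 CPM in B6 females and 53.5, 50.1, 63.0, 65.1 and 46.6 CPM in B6 males. In C3 females it was 17.0, 20.2, 21.4, 17.2 and 14.7 CPM, and in C3 males 41.0, 45.4, 42.4, 51.3 and 49.5 CPM. The sexes were separated in both strains, and the lowest of the 10 male livers was at 41.0 CPM, above the highest female liver at 27.2 CPM. The male level was 2.55-fold higher in B6 mice (log2 fold change -1.35 ± 0.11 SE, adjusted p = 6.7e-08) and 2.57-fold higher in C3 mice (-1.36 ± 0.12, adjusted p = 8.3e-08).

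Hsd3b3, a closely related enzyme of the same family, was the most abundant of these neighbours in females. Its level was 131, 92.7, 178, 166 and 172 CPM in B6 females and 314, 331, 249, 240 and 305 CPM in B6 males. In C3 females it was 154, 123, 121, 179 and 145 CPM, and in C3 males 292, 311, 304, 244 and 301 CPM. Again no female liver reached a male liver of either strain. The male level was 1.97-fold higher in B6 mice (log2 fold change -0.98 ± 0.08 SE, adjusted p = 5.4e-08) and 1.91-fold higher in C3 mice (-0.93 ± 0.08, adjusted p = 1.2e-07).

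Over the 4 genes Hsd3b1, Hsd3b2, Hsd3b3 and Hsd3b5, summed TPM on this stretch of chromosome 3 reached 238 ± 54.1 (SD, n = 5) in B6 females and 206 ± 26.6 TPM in C3 females. In males the sum was 754 ± 52.0 TPM in B6 and 879 ± 39.7 TPM in C3. Hsd3b5 made up 12.9 ± 7.67% of the sum in B6 females and 7.39 ± 3.17% in C3 females, but 48.7 ± 6.92% in B6 males and 59.0 ± 4.60% in C3 males. Hsd3b3 made up 75.4 ± 6.50% and 80.7 ± 2.02% in females and 42.9 ± 7.19% and 35.3 ± 4.56% in males. Female livers thus held mostly Hsd3b3. Hsd3b5 was the larger part in every C3 male, with at least 55.1% against at most 38.6% for Hsd3b3. In B6 males it was above Hsd3b3 in 3 of 5 livers, and replicate 1 held 52.1% Hsd3b3 and 38.9% Hsd3b5.

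**Figure D2:**
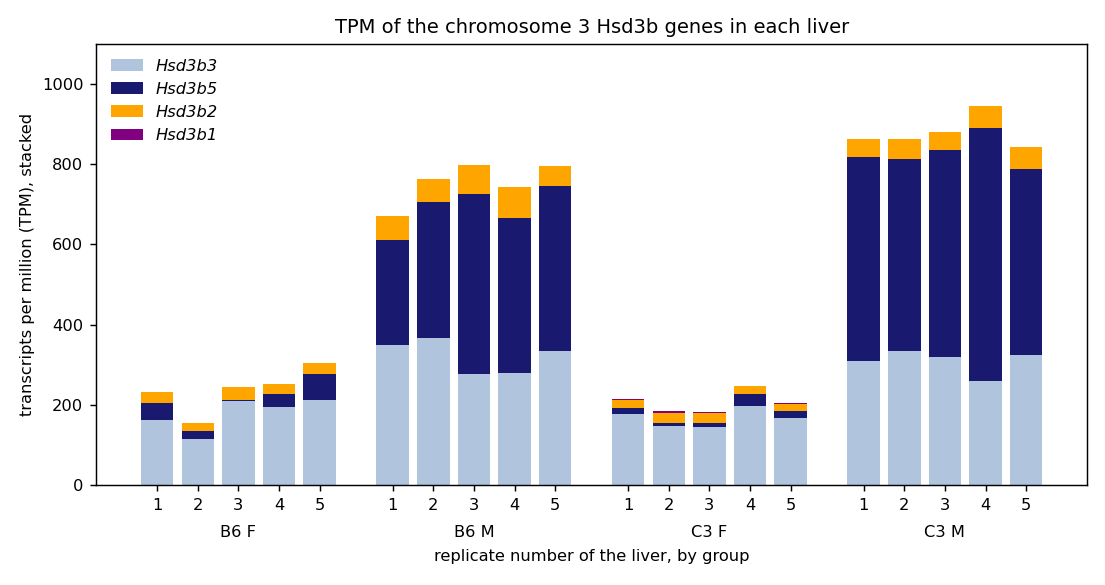
TPM of Hsd3b3, Hsd3b5, Hsd3b2 and Hsd3b1 stacked for each of the 20 livers, in groups of 5 with the replicate number under each bar. The sum lies between 154 and 304 TPM in females and between 671 and 946 TPM in males, and the Hsd3b5 part is the one that differs most.

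The neighbours are similar enough for reads to be shared. Of the 125-base windows of their mm9 transcripts (the length of a sequenced mate), 3.64% in Hsd3b2, 9.29% in Hsd3b3 and 4.26% in Hsd3b5 were identical in another gene. Reads with several matches were not counted by the authors, so the levels of these genes are uncertain. Reads were sequenced and counted as pairs, and the share of pairs lost was not measured and can differ from that of single windows. Reads of both strains were aligned to mm9, and the effect of sequence differences between the strains on these counts was not tested. The windows of Hsd3b2 and Hsd3b3 were shared with each other and Hsd3b6, and those of Hsd3b5 with Hsd3b4 and the predicted genes Gm10681 and Gm4450.

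Srd5a1, the steroid 5α-reductase that reduces testosterone to dihydrotestosterone and also inactivates glucocorticoids and progesterone, was higher in males. Its level was 68.0, 58.6, 43.9, 55.3 and 40.3 CPM in B6 females and 121, 103, 167, 116 and 145 CPM in B6 males. In C3 females it was 50.6, 38.8, 42.8, 51.5 and 36.7 CPM, and in C3 males 107, 103, 100.2, 115 and 131 CPM. Females and males did not overlap in either strain. The male level was 2.46-fold higher in B6 mice (log2 fold change -1.30 ± 0.14 SE, adjusted p = 1.8e-06) and 2.55-fold higher in C3 mice (-1.35 ± 0.15, adjusted p = 1.4e-06).

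Hsd17b6, an oxidative dehydrogenase related to the retinol dehydrogenases that acts on 3α- and 17β-hydroxysteroids, was the only member called higher in females. In B6 females it was 217, 226, 330, 218 and 192 CPM, and in B6 males 111, 94.8, 123, 102 and 99.2 CPM. The B6 sexes did not overlap, and the female level was 2.22-fold higher (log2 fold change 1.15 ± 0.14 SE, adjusted p = 5.7e-06). In C3 females it was 310, 391, 460, 483 and 491 CPM, and in C3 males 348, 296, 349, 315 and 416 CPM. These C3 groups overlapped, and the female level was 1.27-fold higher without being called (0.35 ± 0.14, adjusted p = 0.056).

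The sex difference of Hsd17b6 was smaller in C3 than in B6 mice (log2 difference -0.80 ± 0.20 SE), with an adjusted p of 0.033 that missed the threshold. Within pools the C3 difference was 0.60, -0.30 and 0.43, so it had the opposite sign in pool 2, which held 1 female and 2 males of that strain. In its transcript 9.78% of 125-base windows were identical in Rdh1, Rdh9 or Rdh19, the neighbouring retinol dehydrogenase genes. Its count is uncertain for that reason, and the share of read pairs lost was not measured.

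The other 5 genes were not called between the sexes. Hsd3b7, the 3β-hydroxysteroid dehydrogenase of bile acid synthesis, had a log2 fold change of 0.07 ± 0.08 SE in B6 mice and 0.10 ± 0.08 in C3 mice, with 95% intervals of -0.08 to 0.23 and -0.06 to 0.25. Hsd11b1, which regenerates active glucocorticoid from its inactive keto form, had 0.16 ± 0.08 and 0.13 ± 0.08, and ranged from 333 to 552 CPM in female and 323 to 502 CPM in male B6 mice. The overlap of the sexes was as wide in C3 mice, with 442 to 744 CPM in females and 443 to 621 CPM in males. Akr1d1, the 5β-reductase of bile acid synthesis and steroid breakdown, had 0.17 ± 0.09 and 0.10 ± 0.09. It lay between 192 and 369 CPM in all 20 livers. Hsd17b2, which oxidises estradiol and testosterone to their less active ketones, had 0.30 ± 0.10 (adjusted p = 0.021) in B6 mice and 0.17 ± 0.10 (adjusted p = 0.17) in C3 mice, and ranged from 144 to 272 CPM over all livers.

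Akr1c6, an aldo-keto reductase with 17β-hydroxysteroid dehydrogenase activity, differed by sex less than the fold threshold. Its level was 1300.4, 1215, 1076, 1074 and 1069 CPM in B6 females and 1053, 1066, 1358.5, 1392 and 1161 CPM in B6 males. In C3 females it was 713, 847, 941, 774 and 745 CPM, and in C3 males 903, 1034, 1030, 1352 and 1098 CPM. The C3 sexes overlapped only between the highest female, replicate 3, and the lowest male, replicate 1. The log2 fold change was -0.07 ± 0.06 SE in B6 mice (adjusted p = 0.39) and -0.49 ± 0.06 in C3 mice (adjusted p = 4.3e-06), just inside the threshold of 0.5, and it was called under 9 of 22 alternative settings.

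**Figure D3:**
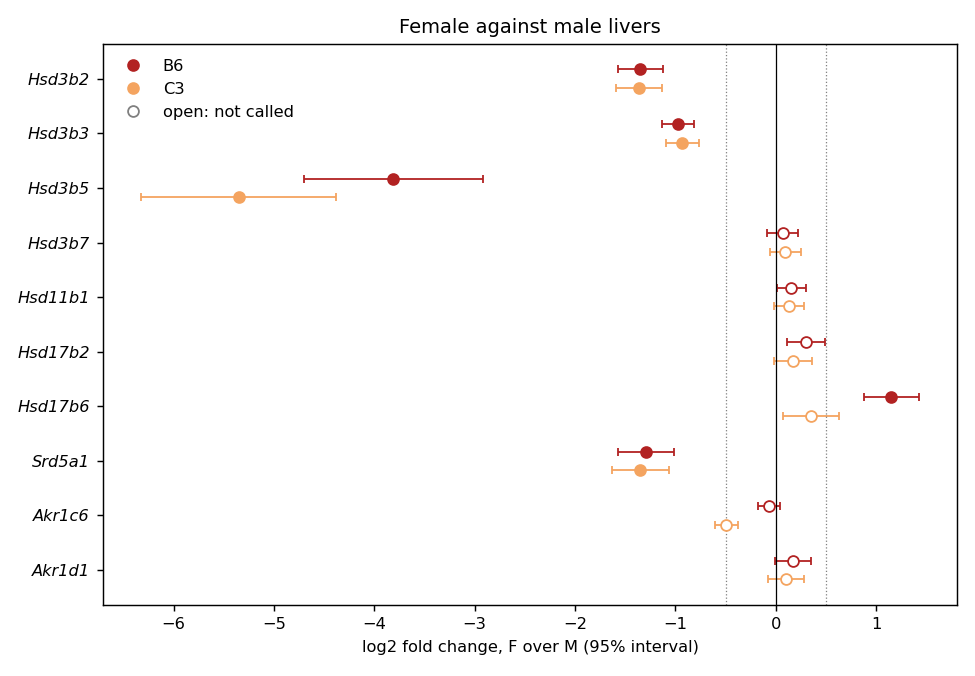
Log2 fold change of females over males for the 10 genes in B6 and C3 mice, with approximate 95% intervals from the SE. Filled points were called, open points were not, and dotted lines mark a log2 fold change of 0.5. The values of the strains lie close together for Hsd3b2, Hsd3b3 and Srd5a1, and differ most for Hsd3b5, at -3.81 in B6 and -5.35 in C3 mice.

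None of the 10 genes was called for the interaction of sex and strain, against 0.401% of all genes tested, and DESeq2 and limma on log2 TPM also called none. In the edgeR fit 3 of the 10 had an unadjusted p under 0.05, against 2203 of the 13704 genes tested. The 3 were Akr1c6 (-0.43 ± 0.08 SE, adjusted p = 0.0056), Hsd17b6 and Hsd3b5. Akr1c6 kept its sign in all 31 alternative settings, at -0.46 to -0.36. Its lowest adjusted p over them passed 0.001, but a value inside the fold threshold of 0.5 could not be called with that threshold. For Hsd3b5 the interaction was -1.54 ± 0.59, a larger sex difference in C3 mice, with an adjusted p of 0.19, so the 14.0-fold and 40.8-fold differences were not shown to differ. For Hsd3b2 the interaction was -0.01 ± 0.16 (95% interval -0.33 to 0.31), for Hsd3b3 0.05 ± 0.12 (-0.18 to 0.27) and for Srd5a1 -0.05 ± 0.20 (-0.44 to 0.34).

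Between the strains, 2 of the 10 genes were called in females and 1 in males, against 9.4% and 9.64% of all genes tested. The livers of the strains did not overlap for 1 gene in females and 2 in males, against 12.8% and 15.1% of all genes. Hsd17b6 was higher in C3 mice of both sexes, and Akr1c6 was lower in C3 females. The median log2 fold change of C3 over B6 was -0.26 over the 10 genes in females, with 8 negative values, and -0.08 in males, with 7, beside 0.02 and 0.01 over all genes.

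Hsd17b6 was 3.19-fold higher in C3 than in B6 males (log2 fold change 1.67 ± 0.14 SE, adjusted p = 3.7e-08). The lowest C3 male had 296 CPM and the highest B6 male 123 CPM, and the difference was 1.73, 1.78 and 1.49 in pools 1, 2 and 3. In females the gene was 1.83-fold higher in C3 (0.87 ± 0.14, adjusted p = 8.0e-05), with an overlap between B6 replicate 3 at 330 CPM and C3 replicate 1 at 310 CPM. These were the only females of pool 2, in which the difference was -0.09, while it was 1.25 and 0.94 in pools 1 and 3. The call in females was lost when only the female libraries were fitted (adjusted p = 0.0046) and in a test against a log2 fold change of 0.5 (adjusted p = 0.026).

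Akr1c6 was 1.43-fold lower in C3 than in B6 females (log2 fold change -0.52 ± 0.06 SE, adjusted p = 1.2e-06), and the highest C3 female at 941 CPM lay below the lowest B6 female at 1069 CPM. The value was -0.50, -0.59 and -0.49 within the pools. It sat close to the fold threshold, and it moved to -0.49, no longer called, without B6 female replicate 3 and likewise without C3 female replicate 2. The call was also lost without the pool term, at -0.51 with an adjusted p of 0.0031, and in a test against a log2 fold change of 0.5. In males the strain difference was -0.09 ± 0.06 (adjusted p = 0.26), with overlapping livers.

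Hsd3b5 was higher in every C3 male, from 380 CPM, than in any B6 male, up to 356 CPM. The log2 fold change was 0.70 ± 0.42 SE with an adjusted p of 0.20 in the fit over all 20 libraries, whose spread for this gene includes the variable females. Fitted on the 10 male libraries alone it was 0.66 with an adjusted p of 7.0e-04, and was then called. In females the log2 fold change was -0.84 ± 0.43 (adjusted p = 0.15), the groups overlapped, and the single pair of pool 2 differed in the opposite direction, at 2.20.

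Smaller strain differences were seen in both sexes for Hsd11b1, Akr1d1 and Hsd3b7, none beyond the fold threshold. Hsd11b1 was higher in C3, with a log2 fold change of 0.39 ± 0.08 SE in females (adjusted p = 5.8e-04) and 0.41 ± 0.08 in males (adjusted p = 3.8e-04). Within pools the difference was 0.37, 0.00 and 0.62 in females and 0.46, 0.41 and 0.38 in males. Akr1d1 was lower in C3, with -0.42 ± 0.09 (adjusted p = 0.0015) and -0.35 ± 0.09 (adjusted p = 0.0063). Hsd3b7 was lower in C3, with -0.33 ± 0.08 (adjusted p = 0.0032) and -0.35 ± 0.08 (adjusted p = 0.0021). The strains overlapped in each of these comparisons. For Hsd3b2, Hsd3b3, Hsd17b2 and Srd5a1 the strain differences lay between -0.27 and -0.02, with adjusted p-values from 0.085 to 0.90.

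**Figure D4:**
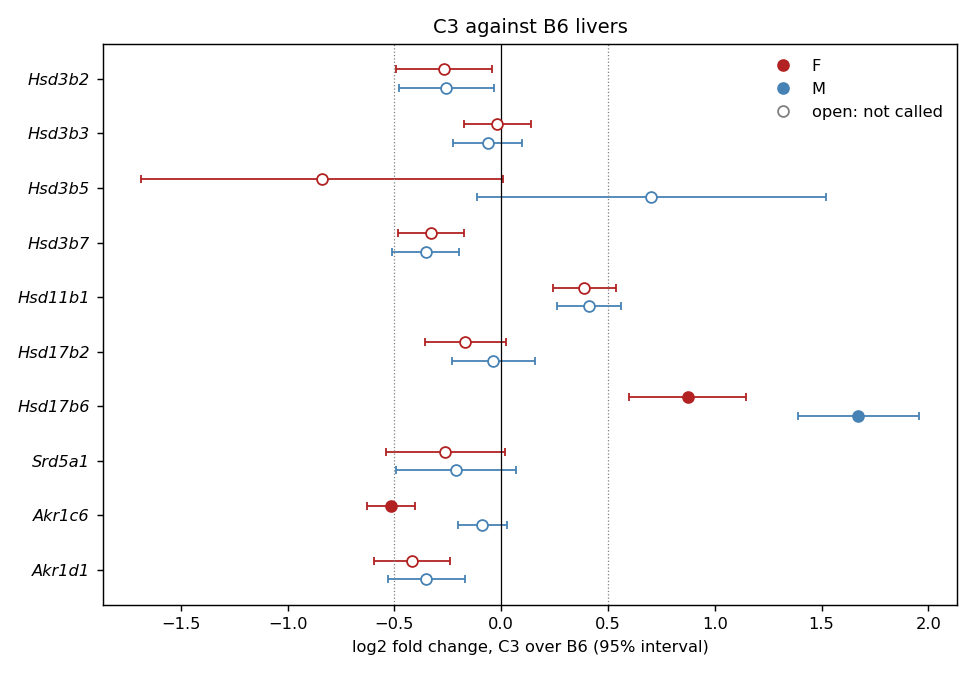
Log2 fold change of C3 over B6 for the 10 genes in females and males, with approximate 95% intervals from the SE. Filled points were called and dotted lines mark a log2 fold change of 0.5. Hsd17b6 stands to the right in both sexes at 0.87 and 1.67, and Akr1c6 in females is at -0.52.

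Hsd3b7 followed the sequencing pool more than sex or strain. It lay between 291 and 436 CPM in the 8 livers of pool 1, between 350 and 519 CPM in the 5 of pool 2, and between 537 and 828 CPM in the 7 of pool 3. No pool 3 liver overlapped with another pool. Pool 3 was higher than pool 1 by 0.93 on the log2 scale (adjusted p = 2.0e-09 for the pool term, a test chosen after the values were seen). The pool term also passed an adjusted p of 0.001 for Hsd11b1, which was higher in pool 3 by 0.55, for Akr1c6, higher by 0.28, for Hsd17b2, at -0.51, and for Hsd3b3, at -0.44. Over all genes tested it passed for 4798 genes, or 35%. Because each pool held every group and pool was a term of the model, the fold changes of the main fit above are adjusted for pool. The levels, ranks, sums, shares, coefficients of variation and overlaps are not adjusted. Pools 1, 2 and 3 held 2, 2 and 1 C3 males but 2, 1 and 2 mice of each other group.

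**Figure D5:**
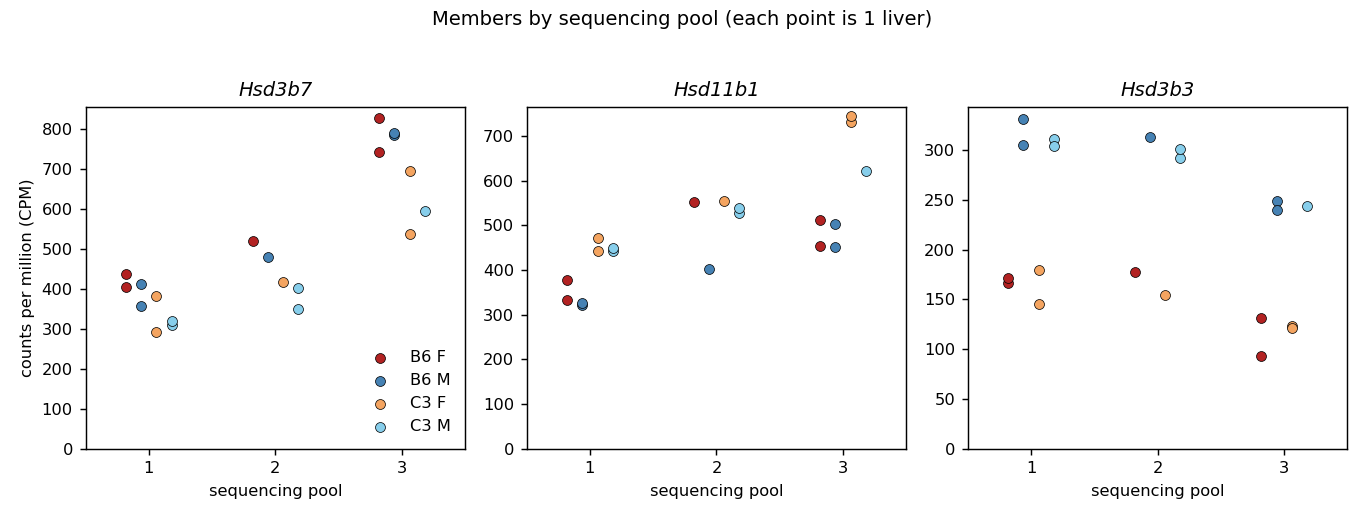
CPM of Hsd3b7, Hsd11b1 and Hsd3b3 in each liver by sequencing pool, coloured by group. Hsd3b7 is highest in pool 3, from 537 CPM, in all groups, while males stay above females in each pool for Hsd3b3.

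Of 23 other genes of these enzyme families with a locus in the tables, 15 were tested. Hsd17b10, a mitochondrial dehydrogenase encoded on the X chromosome, was higher in males by 2.24-fold in B6 mice (log2 fold change -1.16 ± 0.06 SE, adjusted p = 1.0e-10) and by 1.27-fold in C3 mice, which was not called (-0.35 ± 0.06, adjusted p = 3.9e-04). It was the only gene of this list called for the interaction (0.82 ± 0.09, adjusted p = 2.6e-05), a call lost without the pool term (0.78, adjusted p = 0.0017) and in a test against a log2 fold change of 0.5 (adjusted p = 0.034), and was lower in C3 than in B6 males (-0.97 ± 0.06). Its level was 215, 203, 183, 193 and 193 CPM in B6 males, above every other liver, of which the highest was a B6 female at 111 CPM. Hsd17b12, which also elongates fatty acids, was higher in B6 males (-0.70 ± 0.06, adjusted p = 1.2e-07). This call was lost in a test against a log2 fold change of 0.5 (adjusted p = 0.015). In C3 mice its value was -0.46 ± 0.06 (adjusted p = 2.2e-05), inside the fold threshold but with no overlap of the sexes, and its interaction was not called (adjusted p = 0.18).

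Hsd3b1, the form of the adrenal gland and gonads, was detected mainly in females. It was 2.21, 3.10, 2.89, 1.41 and 1.59 CPM in C3 females, at 0 counts in all B6 males, and at most 1 count in a C3 male. B6 females ranged from 0 to 1.41 CPM, with 2 of the 5 at or under 3 counts. The C3 females were at least 23.8-fold higher than C3 males and B6 females at least 4.61-fold higher than B6 males, taking 3 counts in each male library as the limit of detection, and the test called the C3 difference (adjusted p = 1.9e-04) and not the B6 one (adjusted p = 0.0089). The B6 bound fell to 1.64-fold without B6 female replicate 4, which alone was above 1 CPM. The C3 call was lost with a replicate block and without C3 female replicate 1, C3 male replicate 3 or C3 male replicate 4.

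Between strains, Hsd17b13, a lipid droplet protein, was lower in C3 females (-0.92 ± 0.16, adjusted p = 1.4e-04) and C3 males (-1.19 ± 0.16, adjusted p = 8.6e-06). Akr1c14 (-0.60 ± 0.11, adjusted p = 2.8e-04) and Akr1c19 (-0.76 ± 0.12, adjusted p = 9.9e-05), aldo-keto reductases like Akr1c6, were lower in C3 females. In males their values were -0.45 ± 0.11 (adjusted p = 0.0037) and -0.59 ± 0.12 (adjusted p = 0.0011, with no overlap of the strains), neither called. The 3 calls in females became 1, that of Akr1c19, without the pool term and with the female libraries alone, and 0 in a test against a log2 fold change of 0.5, and that of Akr1c14 was also lost without B6 female replicate 3, where it was -0.43, or C3 female replicate 1 or 4. The list gave 2, 1, 3, 2 and 1 called genes in the 5 comparisons, in the order B6 sex, C3 sex, females, males and interaction, against 6.34%, 6.9%, 9.4%, 9.64% and 0.401% of all genes tested. Median log2 fold changes of its 15 genes were -0.25, -0.24, -0.09, -0.22 and 0.09.

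Of 5 steroid receptor genes 3 were tested. Esr1, the estrogen receptor α, was higher in females by 1.39 ± 0.13 on the log2 scale in B6 mice (adjusted p = 1.3e-07) and by 1.01 ± 0.13 in C3 mice (adjusted p = 7.3e-06). None of the 3 was called between strains or for the interaction by edgeR. There 0, 2 and 2 of them, for females, males and the interaction, had an unadjusted p under 0.05. Over the 13704 genes tested these numbers were 5739, 6070 and 2203.

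The genes whose pattern over the 20 livers came closest to a member were found by the root mean square difference of log2 CPM, each gene centred on its own mean. Scp2, which encodes a sterol carrier protein, was the closest to Srd5a1 at 0.25 and to Hsd3b2 at 0.26, and Hsd3b2 was the second closest to Srd5a1 at 0.30. C730027H18Rik was the second for Hsd3b2 at 0.29. For Hsd3b3 the closest were Pard3b at 0.20 and Mctp2 at 0.21, and for Hsd17b6 they were 5930430L01Rik and H2-T24, both at 0.31. The closest to Hsd3b5 were Ugt2b38 at 0.78 and Serpina1e at 0.81. Hsd3b5 itself had a root mean square spread of 2.54, against 0.55 to 0.79 for the other 4.

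Cell type markers that moved with sex or strain stand beside these differences. Hepatocyte markers (Alb, Apoa1, Ttr and Serpina1c) summed to 103124 to 135991 TPM in B6 females, 79612 to 106327 TPM in B6 males, 142508 to 174435 TPM in C3 females and 107560 to 136050 TPM in C3 males. Of these 4 only Alb had a positive log2 fold change for females over males, at 0.42 in B6 and 0.46 in C3 mice. The other 3 were negative in both strains, so the sums do not stand for each marker. Serpina1c was called lower in females in both strains and Apoa1 higher in C3 mice of both sexes. Of 4 pancreas markers Cpa1, Prss2 and Pnlip were at or under 3 counts throughout, while Cela1 was called lower in C3 females than in C3 males (-0.95 ± 0.12, adjusted p = 7.3e-06) and higher in C3 than in B6 mice in females (0.61 ± 0.12) and males (0.98 ± 0.12). Kupffer cell markers summed to 313 to 420 TPM in B6 females against 186 to 291 TPM in B6 males, and 220 to 320 TPM against 134 to 203 TPM in C3 mice, with 1 of 4 called between the sexes in each strain. All 4 had negative values for C3 over B6 in both sexes, with 2 called in females and 1 in males. Pericentral hepatocyte markers were lower in C3 mice, with 4 of 4 called in females and 3 of 4 in males, and summed to 7117 to 8938 TPM in C3 females against 11642 to 16151 TPM in B6 females. The male sums overlapped, at 7923 to 11683 TPM in C3 against 9572 to 14401 TPM in B6. No bile duct, sinusoidal endothelial or stellate cell marker was called by edgeR in any comparison. In these 0 to 2, 0 to 4 and 0 to 4 of 4 had an unadjusted p under 0.05, against 2203 to 6720 of the 13704 genes tested. Some missed only the fold threshold. Between the sexes these included Colec11 in B6 (0.46, adjusted p = 2.3e-05) and C3 mice (0.37, adjusted p = 2.8e-04) and Stab2 in B6 mice (0.35, adjusted p = 2.8e-04). All 4 sinusoidal and all 4 stellate markers had positive values for females over males in both strains. Sinusoidal markers summed to 230 to 278 TPM in B6 females against 176 to 199 TPM in B6 males and to 202 to 254 against 166 to 200 TPM in C3 mice, and stellate markers to 291 to 356 against 216 to 256 TPM and to 229 to 271 against 169 to 210 TPM, with no overlap of the sexes. Among 4 periportal markers Hal was called between C3 and B6 males. In these bulk samples, fewer cells of a type and less RNA per cell cannot be told apart, and the part of these markers in the results for the 10 genes was not tested.

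Among the markers of steroid-producing cells, Cyp17a1, which makes the precursors of sex steroids and was singled out after its values were seen, was higher in females. It was 73.5 ± 19.7 CPM (SD, n = 5) in female and 7.20 ± 4.76 CPM in male B6 mice, and 4.63 ± 1.16 CPM in female and 0.839 ± 0.239 CPM in male C3 mice, with a log2 fold change of females over males of 3.44 ± 0.31 SE in B6 mice and 2.54 ± 0.41 in C3 mice. Cyp21a1, the 21-hydroxylase of the adrenal gland, went the other way at 0.128 ± 0.0780 CPM in female and 1.09 ± 0.585 CPM in male B6 mice (-3.12 ± 0.37, adjusted p = 4.6e-06), and was not called in C3 mice (-1.32 ± 0.72, adjusted p = 0.15). Star, which brings cholesterol into mitochondria, had 0.00 ± 0.23 and 0.06 ± 0.24 and was not called, and Cyp11a1 and Cyp11b1 were at or under 3 counts in every liver. Between strains Cyp17a1 was lower in C3 mice of both sexes (-4.01 ± 0.32 in females and -3.11 ± 0.40 in males) and Cyp21a1 lower in C3 males (-3.55 ± 0.42). Cyp21a1 had 2 to 8 counts per library in B6 females, 0 to 2 in C3 females and 1 to 4 in C3 males, against 17 to 66 in B6 males. All groups but B6 males were thus near the limit of 3 counts, and the size of its fold changes is uncertain. The labels were checked with Xist and Ddx3y: every library labelled female had at most 1 count of the Y-linked Ddx3y, and every library labelled male at most 11 counts of Xist, against at least 12349 in females.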

How the data were processed

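Strain, sex and pool of each of the 20 livers were taken from the sample labels. The deposited tables hold unnormalized counts per RefSeq gene, which the authors made with Cutadapt 1.9.1, STAR 2.5.1b on mm9 and featureCounts of Subread 1.5.0-p1 from stranded, ribosomal RNA-depleted libraries, without multimapping reads. They also deposited TPM, in which counts are scaled by a gene length whose definition is not given in the sources used here. Gene symbols and identifiers were read by content, because their 2 column headers are exchanged.

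Counts were fitted in R 4.3.3 with edgeR 4.0.16 (filterByExpr, TMM, quasi-likelihood test of group and pool over 20 libraries, with p-values adjusted by the Benjamini-Hochberg method over 13704 genes). A gene was called at an adjusted p under 0.001 and a log2 fold change beyond 0.5, the thresholds of the study. CPM values use TMM library sizes, and errors are SD for levels and SE for log2 fold changes. A count of 3 per library was taken as the limit of detection, which covers counting error only. The SE is the absolute log2 fold change over the square root of the F statistic of the test. Intervals at 95% are 1.96 SE on either side, a normal approximation that is narrower than the quasi-likelihood test. For Hsd11b1 between the sexes in B6 mice the interval was 0.0095 to 0.30, positive throughout, while that test gave an unadjusted p of 0.051. The script was tested on simulated counts. DESeq2 1.42.0 and limma 3.58.1 on log2(TPM + 1) or log2(TPM + 0.1), other normalizations, filters and thresholds, a replicate block, no pool term and each liver left out served as alternatives.

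The members, gene lists and tests were chosen with earlier results of these data known. Named were all 10 members, every called gene among the related enzymes and steroid receptors, the 2 genes closest in pattern to each member called between the sexes, and Xist and Ddx3y. A further steroid receptor gene is not reported here. Promoters were taken from RefSeq on GRCm38.p6, matched by symbol for 9 of 10 members, and coding sequences from GENCODE vM1, with Biopython 1.88 (match 1, mismatch -1, gap -2 and -0.5). Protein sequences were not used here. Replicates are separate mice, and in 40 within-group pairs the counts differed by more than sampling noise (chi-square per degree of freedom 20.0 to 187).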

Additional observations from a re-analysis of the deposited data

Results flagged for a closer look

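In groups of 5 livers the lowest or highest liver was compared with its neighbour by Dixon's ratio, for the 10 members and 7 other named genes. Of 67 such groups 5 held a liver that stood apart, where chance alone gives about 1 in 20.

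Among the members, Hsd3b3 in C3 male replicate 4 was low at 244 CPM, with the other 4 males between 292 and 311 CPM. This was the only C3 male of pool 3, in which Hsd3b3 was lower than in pool 1 (log2 difference -0.44). Hsd17b6 in B6 female replicate 3 was high at 330 CPM, with the others between 192 and 226 CPM. This liver was the only B6 female of pool 2, and was also the one with the lowest Hsd3b5, at 2.16 CPM. Without a single liver the Hsd17b6 sex difference in B6 mice lay between 1.00 and 1.22.

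Among the other genes, Esr1 in C3 male replicate 3 was low at 21.1 CPM. Hsd3b1 was high in B6 female replicate 4, at 1.41 CPM from 52 counts, and the value of 0.0300 CPM in C3 male replicate 3 is 1 count. The sex difference of Hsd17b10 differed between the strains by 0.82 on the log2 scale in the interaction test.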

How the results depend on the processing

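Of the 12 calls of a member in a comparison, 10 were made under every alternative run and all 12 kept their sign. Of the 38 values not called, 27 were called under no alternative and 9 changed sign under at least 1. The numbers of called members were 5 and 4 between the sexes and changed by at most 1 under the alternatives. Between strains in females the 2 calls became 5 at an adjusted p under 0.05 with no minimum fold, 1 without the pool term, 1 with the female libraries alone and 0 in a test against a log2 fold change of 0.5 (glmTreat), and 1 to 2 when a liver was left out. Between strains in males the 1 call became 4 at the looser threshold and 2 with the male libraries alone, and for the interaction 0 became 2 at the looser threshold. The replicate block gave 5, 4, 2, 1 and 0 called members, as without the block. The labels do not say what the replicate number marks. The mean correlation of the 5 same-numbered pairs lay between -0.24 and 0.22 over the comparisons, and between -0.01 and 0.10 with pool removed. At most 3 of the 5 pairs in a comparison were above 0.1, which does not exclude pairing. Over all genes, limma on log2(TPM + 0.1) moved the median sex difference to 0.11 in B6 and 0.12 in C3 mice. The lowest count of a member in a liver was 64, so depth limits only genes near 3 counts, such as Hsd3b1. The causes of these changes were not tested.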
